A study of Mus musculus with 18 samples.

Results

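The 8 thymic lymphomas of the series were compared with one another, gene by gene, to find which genes differed most from tumour to tumour and which of them rose and fell together. The arrays were chosen by their titles, thymus lymphoma 1 to 8, and make up 8 of the 18 arrays. Each tumour came from a separate mouse of the genotype CD4Cre-Ctnnbex3, in which a Cre recombinase under Cd4 control removes the third exon of the beta-catenin gene Ctnnb1, so that thymocytes make beta-catenin that escapes degradation. The reference for spread was formed by 5 mice of the same genotype sampled before T-cell transformation and by 5 controls, which the design text calls LckCre mice and the sample labels call wild type. That discrepancy was not resolved, no ages were given, and each mouse gave 1 array of total thymocytes or tumour mass. Such a tissue is a mixture: a lower signal from fewer cells of a type and a lower signal from less RNA in each cell cannot be told apart. The mice were described as independent, and p-values measure the spread between these mice.

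Beta-catenin is the effector of canonical Wnt signalling. It binds TCF and LEF proteins on DNA and turns on target genes such as Axin2, a scaffold of the complex that degrades beta-catenin, and Myc, a growth regulator. In the thymus, most cells are double-positive thymocytes that carry both CD4 and CD8, rearrange the T-cell receptor alpha locus with the Rag recombinase, and die unless their receptor is selected. Tumours of such cells also hold macrophages, B cells, fibroblasts and vessels, and each of these brings its own transcripts into a bulk sample.

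Values are log2 intensities. Signals under the table's 20th percentile, an intensity of 53.5, were set to that intensity (5.74 on the log2 scale, called the floor), and genes at the floor are not ranked. Of 18194 genes with a probe set of a single symbol, 14020 passed a filter on low signal (an intensity above 109 on at least 5 of 18 arrays). The arrays had median intensities of 125 to 166, with lymphomas 1 and 2 at the low end (129 and 125). These 2 arrays also held the most probe sets at or below the floor, 25.4% and 26.6%, against 18.9% to 21.2% in lymphomas 3 to 8. The mean of the array's spike-in controls was lowest in lymphoma 6 (9.71), and lay between 10.57 and 11.05 in the other groups. The log2 difference between 3' and 5' probe sets of Gapdh was -0.17 in lymphoma 6 and -0.22 to -0.10 over the lymphomas.

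Among the 8 tumours the standard deviation (SD) of a gene had a median of 0.29 on the log2 scale. It was 0.19 among the controls, 0.24 before transformation and 0.23 for the pooled within-group SD of those 10 mice, called the reference SD here. An SD of at least 1 was reached by 270 genes among the lymphomas (1.93% of the genes tested) and by 63 genes in the reference (0.449%), with 24 genes in common. Of the 270, which were picked for a large SD, 259 had a larger SD than in the reference and 125 had at least 3 times its size. Over all genes tested, 9304 (66.4%) had a larger SD than in the reference. With lymphomas 3 to 8 alone this held for 6040 genes (43.1%). Among the 270, the reference of 10 lay wholly at the floor, and 100 were at the floor in at least 1 lymphoma. The gap between the highest and the lowest tumour was at least 4-fold for 966 genes, or 6.89%, and at least 16-fold for 66.

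**Figure D1:**
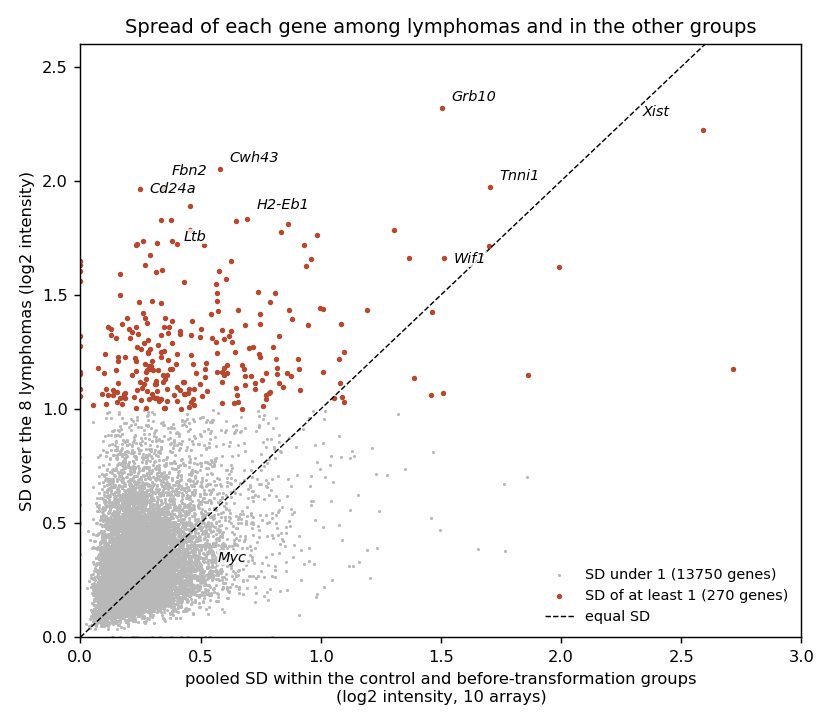
SD of each of the 14020 genes over the 8 lymphomas (vertical axis, log2 intensity) against its pooled SD within the control and before-transformation groups (horizontal axis, 10 arrays), with the dashed line at equal SD. The 270 genes with an SD of at least 1 are in red, and 259 of them lie above the line. Of all 14020 genes, 9304 (66.4%) lie above it.

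The spread of single genes was tested with limma on the absolute deviation of each array from its group mean. By this test 312 genes, or 2.23%, spread more widely among the lymphomas and 71 genes, or 0.506%, less widely (Benjamini-Hochberg adjusted p under 0.05). Without adjustment 2386 and 663 genes had a p under 0.05. On log2 deviations, an alternative chosen after seeing the data, the counts were 947 (6.75%) and 136 (0.97%), with 311 and 58 of the same genes, whereas squared deviations gave 3 and 0 and deviations from the group median 40 and 0. The count of wider genes also moved with the mice included: it was 152, 175, 178, 175 and 191 without control 1 to 5 in turn, 177, 199 and 186 without mouse 1, 4 or 5 before transformation, 199 without lymphoma 1, and 516, 528 and 574 without lymphoma 4, 5 or 8. The count of narrower genes was 34 without control 1, and 31, 30, 162 and 111 without mouse 1, 2, 3 or 5 before transformation. With all mice numbered 1 and 2 left out, 18 genes were wider and 1 narrower. Against controls alone the counts were 110 and 25, and against mice before transformation alone 71 and 109, so that neither the number of wider genes nor the balance of both directions held across these references. Of the 312 genes, 58 were above the intensity of the filter in fewer than 5 reference mice, 33 of them in none. Such genes passed the filter only with lymphomas in which they were high, and their values are given without a test.

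The lymphomas did not lie evenly around their mean. The median absolute deviation over genes from the group mean was 0.326 in lymphoma 1, 0.311 in lymphoma 2, 0.225 in lymphoma 6 and 0.192 in lymphoma 7, and 0.150 to 0.164 in the other 4 tumours. Its mean was 0.212 ± 0.0701 (SD, n = 8) among lymphomas and 0.168 ± 0.0390 (SD, n = 10) in the reference, a difference of 0.0443 that did not pass a two-sided exact permutation test (p = 0.114, where the smallest p of 43758 splits is 2.29e-05). Without lymphomas 1 and 2 the difference was -0.0187 (exact permutation p = 0.372). Leaving out lymphoma 1 or 2 alone gave 0.0195 and 0.0205 (exact permutation p = 0.563 and 0.580), and leaving out lymphoma 3, 4, 5 or 8, or mouse 2 before transformation, brought the exact permutation p to 0.0422, 0.0357, 0.0392, 0.0368 and 0.0220. Over lymphomas 3 to 8 the median SD was 0.20, 242 genes (1.73%) had an SD of at least 1, and 211 of them were among the 270. The first principal component of the 8 tumours held 40.9% of their variance and placed lymphomas 1 and 2 (55.4 and 42.2) apart from the other tumours (-23.3 to -2.88). The second held 22.3% and set lymphoma 6 apart (52.2), and the third 13.9% with lymphoma 7 at its end (33.3). Over genes, the lowest correlation between tumours was 0.850 for lymphomas 1 and 6, and the highest was 0.965 for lymphomas 3 and 4. Lymphomas 1 and 2 correlated with each other at 0.956. Arrays numbered 1 and 2 also shared deviations from their group means across groups: control 1 correlated at 0.362 and 0.374 with mice 1 and 2 before transformation and at 0.388 with lymphoma 2, and mouse 2 before transformation at 0.282 and 0.408 with lymphomas 1 and 2. The labels do not say whether mice 1 and 2 were processed as a set, and its part in the first component and in the spread counts was not tested.

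Grb10, an adaptor protein that dampens insulin and growth factor receptor signalling, had the largest SD of all genes outside the sex-linked ones, 2.32 against a reference SD of 1.5. Its level in lymphomas 1 to 8 was 7.15, 11.38, 12.39, 11.69, 10.90, 6.57, 7.41 and 10.48. All 5 controls were at the floor, and the mice before transformation had 6.23, 6.07, 10.99, 6.31 and 6.35. Tumours thus fell into a high set (2, 3, 4, 5 and 8) and a low set (1, 6 and 7), 56.5-fold apart at the extremes, and mouse 3 before transformation lay within the high set. Among the reference mice only mouse 3 before transformation was above the intensity of the filter, so the spread of Grb10 is given without a test. Cwh43, a membrane protein involved in lipid remodelling of GPI anchors, had 6.34, 7.4, 11.75, 10.54, 10.07, 7.57, 6.24 and 9.26, with the same 3 tumours at 7.57 or below, joined by lymphoma 2. Its SD was 2.05 against 0.58. Tnni1, a troponin of slow muscle, was low in lymphomas 6 and 7 (6.35 and 6.61) and reached 11.36 in lymphoma 4. All controls were at the floor, and mouse 3 before transformation had 11.65.

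Fbn2, the extracellular microfibril protein fibrillin 2, was 10.83 in lymphoma 1 and 10.45 in lymphoma 8, and 5.88 to 9.34 in the other tumours. Controls were at 5.74 to 5.75 (SD 1.97 against 0.34). Cd24a, a surface glycoprotein abundant on immature thymocytes, had 11.95, 11.30, 8.90, 11.04, 7.24, 6.97, 11.61 and 10.02. Controls lay between 11.58 and 11.99 and mice before transformation between 10.68 and 11.39, so that lymphomas 3, 5, 6 and 8 fell below both groups, and the gap within the tumours was 31.5-fold (SD 1.97 against 0.25, limma adjusted p = 0.00881). P3h4, which takes part in collagen modification, followed a like order, from 5.74 in lymphoma 3 to 10.68 in lymphoma 1. Barx1, a homeobox gene, was high in lymphomas 3 and 6 (11.06 and 11.85) and 6.83 to 8.75 elsewhere.

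**Figure D2:**
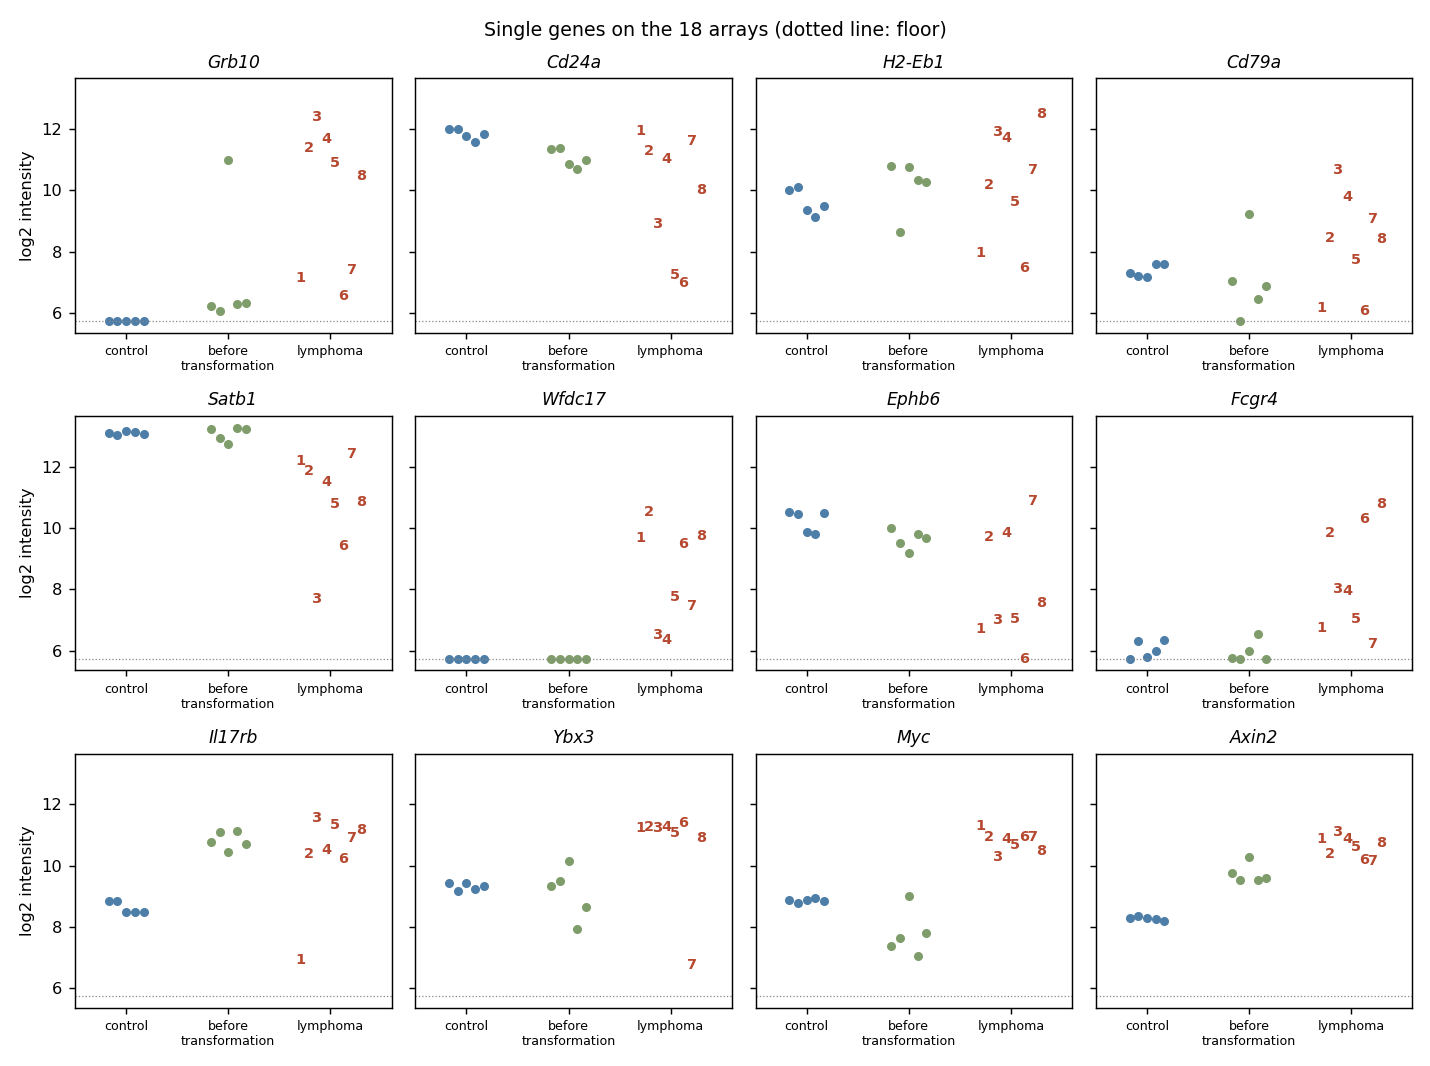
Level of 12 genes (log2 intensity, vertical axis) on the 18 arrays, with controls and mice before transformation as points and each lymphoma as its number. Grb10 separates lymphomas 2, 3, 4, 5 and 8 from 1, 6 and 7, Il17rb is low in lymphoma 1 alone, and Ybx3 is low in lymphoma 7 alone. Myc and Axin2 vary less than Grb10, Il17rb and Ybx3, with SDs of 0.31 and 0.35 beside a median of 0.29 over all genes.

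The 200 genes of largest SD were grouped by average linkage on their correlation across the 8 tumours. This gave 8 groups of at least 8 genes with 155 genes in all, named A to H by size. The mean correlation between any 2 of the 200 genes was 0.142, and between any 2 of all genes tested 0.0147. Groups were built from these correlations, so the mean correlation inside them is a description. The mean correlation was 0.702 to 0.831 over the 8 tumours. The same genes, as deviations within the reference groups, correlated at -0.0636 to 0.412.

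Group A held 73 genes. Its genes stood, on average, 1.63, 1.23 and 1.06 above their tumour mean in lymphomas 3, 4 and 8, close to it in lymphomas 2 and 5 (-0.15 and -0.17), at -0.44 in lymphoma 7, and at -1.67 and -1.49 in lymphomas 1 and 6. It brought together Grb10, Cwh43, Tnni1 and the beta-catenin targets Sp5 and Wif1, the MHC class II genes H2-Eb1, H2-Aa, H2-Ab1 and Cd74, the B cell genes Cd79a, Cd79b and Ms4a1, the GTPase Gimap4, the lymphotoxin subunit Ltb and the stromal proteoglycan Bgn. Mean correlation was 0.758 over the 8 tumours and 0.742 over lymphomas 3 to 8. In the reference it was 0.412, and 0.157 without mouse 3 before transformation, whose mean level for these genes was 8.76 against 7.15 to 7.68 in the other 4 mice of its group and 7.69 to 7.89 in controls. Stability was checked with 100 or 400 genes, rank correlation, quantile normalization or lymphomas 3 to 8 alone. Of the genes of A still among those used, 77.9% to 94.5% stayed in a single group. With 100 genes this was 41 of 44, out of the 73 of the group. The other groups were less stable. This share was 70.6% to 92.3% for B, 45.5% to 100% for C, 44.4% to 100% for D, 55.6% to 100% for F, 37.5% to 100% for G and 62.5% to 100% for H. For E it was 44.4% to 100%, and no group of E was found with lymphomas 3 to 8 alone. The 100% for C, D, E and F came with 100 genes, where 5, 4, 3 and 2 of their genes were used.

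MHC class II molecules present antigen on B cells, dendritic cells and thymic epithelium. H2-Eb1 had 7.95, 10.18, 11.89, 11.71, 9.61, 7.46, 10.68 and 12.50 in lymphomas 1 to 8, 9.15 to 10.12 in controls and 8.63 to 10.79 before transformation. Lymphomas 3, 4 and 8 lay above every reference mouse and lymphomas 1 and 6 below, a 33.0-fold gap (SD 1.83 against 0.70). H2-Aa ran from 8.67 in lymphoma 6 to 12.65 in lymphoma 8, and H2-Ab1 from 8.46 in lymphoma 1 to 12.18 in lymphoma 8. Over the 8 class II genes measured the median SD was 1.03 against 0.29 for all genes, and 4 of them reached an SD of 1. None of the 8 passed the limma spread test, 5 had an unadjusted p under 0.05, and 2 passed on log2 deviations. The reference spread was large as well, with a median of 0.57.

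The promoters of H2-Aa and H2-Eb1 are shown because both genes belong to group A and share a known element. The windows are the 250 bases before the annotated start, from RefSeq with build GRCm38.p6, at chr17:34287824-34288073 on the minus strand and chr17:34305617-34305866 on the plus strand. Capitals mark GATTGG or its complement CCAATC, the core of the Y box of class II promoters, searched on both strands. The match lies 49 bases before the start of H2-Aa, and 60 and 35 bases before that of H2-Eb1.
H2-Aa: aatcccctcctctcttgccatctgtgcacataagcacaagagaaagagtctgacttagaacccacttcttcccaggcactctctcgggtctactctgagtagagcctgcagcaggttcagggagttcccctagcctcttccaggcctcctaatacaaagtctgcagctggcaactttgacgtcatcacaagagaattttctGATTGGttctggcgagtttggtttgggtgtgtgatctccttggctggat
H2-Eb1: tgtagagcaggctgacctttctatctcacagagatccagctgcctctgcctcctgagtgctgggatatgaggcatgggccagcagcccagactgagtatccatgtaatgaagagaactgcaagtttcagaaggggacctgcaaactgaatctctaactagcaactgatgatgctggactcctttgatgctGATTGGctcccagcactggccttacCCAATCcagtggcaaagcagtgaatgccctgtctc
These letters were found in the windows of 4 of 4 class II genes with an entry in the table, in 5 of 7 class I pathway genes and in 16.6% of all 27025 genes with a window. A match of 6 letters is a description of the sequence and not a measured site.

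Class I genes were also low in lymphomas 1 and 6 and high in lymphomas 3, 4 and 8. The mean over the 9 genes measured was 8.39 in lymphoma 1 and 10.57 in lymphoma 8, and 10.54 to 10.81 in controls. Tap1, a subunit of the transporter that supplies peptides to class I, had 6.31, 7.90, 9.20, 9.59, 7.54, 7.5, 8.57 and 9.98 (SD 1.23 against 0.46, limma adjusted p = 0.0588). Of the 9 genes 4 passed the test for a wider spread, against 2.23% of all genes: the light chain B2m, the transporter subunit Tap2, the loading factor Tapbp and the immunoproteasome subunit Psmb8. B2m and Tap2 are named after their values were seen. Tap2 ran from 7.45 in lymphoma 1 to 9.25 in lymphoma 3 and was 10.22 to 10.51 in controls, so that every tumour lay below every control (SD 0.71 against 0.14, adjusted p = 0.00203).

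B cell transcripts were likewise lowest in lymphomas 1 and 6. Cd79a, a signalling chain of the B cell receptor, had 6.17, 8.45, 10.68, 9.80, 7.72, 6.05, 9.08 and 8.43, against 7.17 to 7.61 in controls and 7.05, 5.74, 9.24, 6.47 and 6.88 before transformation. Lymphoma 3 was highest, lymphoma 7 came after lymphomas 3 and 4, and lymphomas 1 and 6 below all controls. Ms4a1, which encodes CD20, ran from 5.74 in lymphoma 6 to 10.76 in lymphoma 3, and Jchain, the joining chain of secreted antibody, from 7.06 to 12.14 in the same tumours. Over the 9 B cell markers measured of 13 listed, the list mean was 7.24 in lymphoma 1 to 9.59 in lymphoma 3, 7.25 to 7.47 in controls and 6.49 to 8.59 before transformation. The median SD was 0.99, and 4 of the 9 reached 1. None of the 9 passed the limma spread test, 3 had an unadjusted p under 0.05, and 2 passed on log2 deviations. Pou2af1, a coactivator of octamer factors that B cells use, did not share this order: it had 10.40, 11.10, 11.72, 10.44, 12.09, 11.88, 9.10 and 11.33, and its correlation with Cd79a was -0.17 (exact permutation p = 0.697). Group A held 3 of the 9 B cell markers and 4 of the 8 class II genes measured. The part of such cells in the level of Grb10, Sp5 and Wif1 was not tested. In lymphomas 1 and 6, Cd79a had 6.17 and 6.05, Grb10 7.15 and 6.57, Cwh43 6.34 and 7.57, and Sp5 5.74 and 6.04. In lymphoma 7, Cd79a had 9.08, Grb10 7.41, Cwh43 6.24 and Sp5 5.74.

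Sp5 is a transcription factor and a direct target of beta-catenin, and Wif1 is a secreted Wnt inhibitor. Sp5 had 5.74, 5.74, 9.60, 9.21, 8.95, 6.04, 5.74 and 7.73, was at the floor in all controls and reached 7.37 in mouse 3 before transformation. Lymphomas 3, 4, 5 and 8 lay above every reference mouse, and the gap was at least 14.5-fold (SD 1.72 against 0.51). Wif1 had 6.69, 9.40, 11.78, 11.45, 10.83, 9.42, 8.78 and 10.55. Every control was at the floor for Wif1 and mouse 3 before transformation was at 10.52. The window before the start of Sp5 is shown because this gene was high in some tumours and at the floor in others. It lies at chr2:70474673-70474922 on the plus strand (RefSeq, GRCm38.p6), and capitals mark CTTTGAT, the core that TCF and LEF proteins bind, searched on both strands as CTTTGAT or ATCAAAG.
Sp5: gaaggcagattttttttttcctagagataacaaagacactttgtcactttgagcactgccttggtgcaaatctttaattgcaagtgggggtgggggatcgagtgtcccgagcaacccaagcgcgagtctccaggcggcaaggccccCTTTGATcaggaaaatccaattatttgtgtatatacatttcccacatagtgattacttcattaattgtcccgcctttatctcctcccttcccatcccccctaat
The match lies 104 bases before the start. Of 13 beta-catenin targets with a window 2 held these letters, and 3.72% of all genes did. They were also found in 1 of 4 class II genes, H2-Eb1, where they are not marked above, and in 0 of 7 class I pathway genes. No factor binding was measured.

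Axin2, Myc and Lef1 varied less than Sp5 and Wif1. Axin2 had 10.88, 10.39, 11.11, 10.87, 10.61, 10.17, 10.14 and 10.74, above its controls (8.21 to 8.37) in every tumour, with an SD of 0.35 against 0.23. Myc lay between 10.29 and 11.28 in the tumours, 8.77 and 8.93 in controls and 7.04 and 9.01 before transformation, with an SD of 0.31 that was smaller than its reference SD of 0.53. Lef1, a partner of beta-catenin on DNA, had an SD of 0.14. Ccnd2, a D-type cyclin, was 7.69 in lymphoma 7 and 9.20 to 11.11 elsewhere (SD 1.14 against 0.88). Over the 20 genes of the list the median SD was 0.47, above the 0.29 of all genes, and 4 reached 1, against 1.93% of all genes. Sp5 is given without a test, and none of the other genes of the list passed the limma spread test. Axin2 and the feedback inhibitor Nkd1 did not vary together (r = 0.11, exact permutation p = 0.795).

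**Figure D3:**
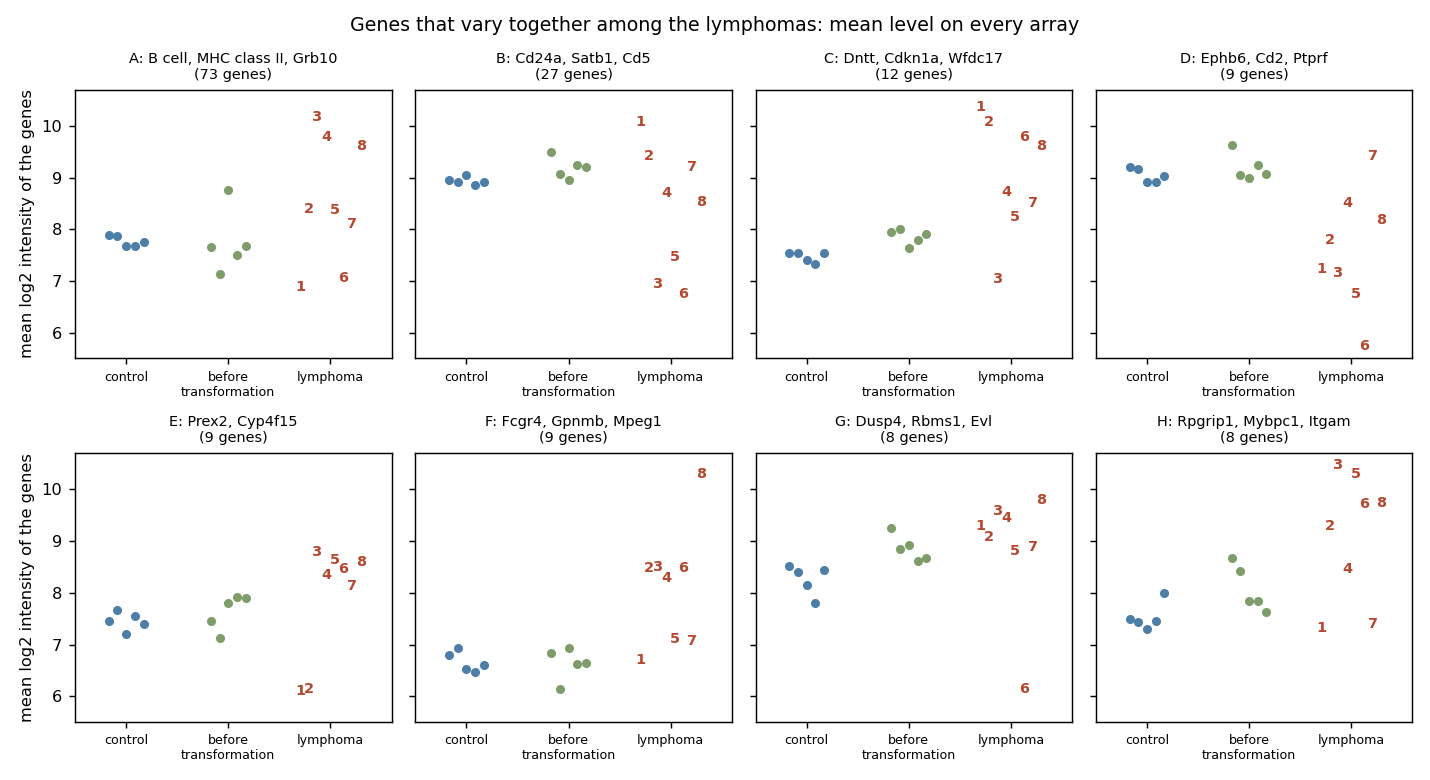
Mean log2 intensity (vertical axis) of the genes of groups A to H on every array, with controls and mice before transformation as points and lymphomas as their numbers. Group A is highest in lymphomas 3, 4 and 8, group B is lowest in lymphomas 3 and 6, and group G is low in lymphoma 6 alone.

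Group B, with 27 genes, ran in another direction. Its genes stood at 1.68 and 1.03 in lymphomas 1 and 2, 0.82 in lymphoma 7 and 0.32 in lymphoma 4, and at -1.44, -0.92 and -1.64 in lymphomas 3, 5 and 6. It held Cd24a, Fbn2, Satb1 and Cd5. Satb1 organises chromatin in thymocytes, and Cd5 is a receptor that tunes the T-cell receptor signal. Satb1 had 12.17, 11.85, 7.68, 11.51, 10.78, 9.42, 12.43 and 10.83, all below the controls (13.04 to 13.18) and the mice before transformation (12.75 to 13.27). Lymphoma 3 was 26.8-fold below lymphoma 7, and the spread did not pass the limma test (SD 1.59 against 0.16, adjusted p = 0.0613). Cd5 had 10.59, 10.84, 8.5, 10.69, 8.65, 8.32, 11.16 and 11.04, with lymphomas 3, 5 and 6 below every reference mouse and the other 5 within the reference range (SD 1.24 against 0.28, adjusted p = 0.000735).

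The list of double-positive stage genes had a median SD of 0.65 over 17 genes, against 0.19 in the reference. Its mean was 8.45 in lymphoma 3 to 9.92 in lymphoma 7, below every control (11.40 to 11.67) and every mouse before transformation (10.79 to 11.26). Rag2 passed the spread test: it was 7.85, 7.39 and 8.01 in lymphomas 1, 2 and 7, at the floor in the other 5, and 9.63 to 10.45 in the reference (SD 1.05 against 0.18, limma adjusted p = 0.000375). Its partner Rag1 was measured in every tumour, from 9.37 in lymphoma 3 to 11.79 in lymphoma 1. Ets2, a transcription factor named after its values were seen, also spread more widely (9.76 to 12.27, adjusted p = 0.0423), and Tdrd5 was at the floor in all 8 tumours. Dntt, the enzyme that adds bases at receptor gene joins, belonged to group C: it was 11.56 in lymphoma 6, 6.52 in lymphoma 3 and 9.0 to 10.61 in the other 6, against 12.98 to 13.08 in controls.

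The coreceptors Cd4 and Cd8b1 varied less. Cd4 had 10.73 to 11.84 (SD 0.32) and Cd8b1 11.90 to 12.34 (SD 0.16). Cd8a was 10.21 in lymphoma 3 and 11.33 to 12.25 in the others, with the same rank order as Cd8b1 (r = 0.90, rho = 1, exact permutation p = 0.000124, adjusted over 18 pairs 0.000744). Cd3e lay between 9.93 and 10.59 (SD 0.23), and the adaptor Lat had an SD of 0.09. Over the 16 genes of the receptor list the median SD was 0.39, above the 0.29 of all genes, and 3 passed the test for a wider spread, against 2.23% of all genes: the adhesion receptor Cd2, the kinase Fyn and the adaptor Lcp2, the last named after its values were seen. Cd2 was at the floor in lymphoma 6, 7.33 to 8.58 in lymphomas 1, 3 and 5, and 9.33 to 9.83 in lymphomas 2, 4, 7 and 8 (SD 1.47 against 0.30, limma adjusted p = 0.0267). Cd3d was 9.49 in lymphoma 6 and 10.79 to 11.78 in the other 7, and the phosphatase Ptprc was 10.67 and 11.98 to 12.54. Among 19 genes of mature thymocytes 5 spread more widely, against 2.23% of all genes, and apart from Cd5 they were Ccr7, Cd6, Tox and Ccr9, of which the first 3 are named after their values were seen. Ccr9, a gut and thymus homing receptor, was 9.13 in lymphoma 6 and 11.94 in lymphoma 3, while its reference SD was 0.05 (adjusted p = 0.0235).

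Group D (9 genes) was highest in lymphoma 7 (1.81), raised in lymphomas 4 and 8 (0.91 and 0.58) and lowest in lymphoma 6 (-1.85). It held Cd2, the catalytically inactive ephrin receptor Ephb6, the phosphatase Ptprf and the endocytic receptor Ly75. Ephb6 had 6.70, 9.71, 7.0, 9.83, 7.04, 5.74, 10.87 and 7.55, against 9.81 to 10.53 in controls and 9.17 to 10.01 before transformation. Lymphomas 2 and 4 lay within the reference range, lymphoma 7 above it and the other 5 below it (SD 1.83 against 0.34, limma adjusted p = 0.00556). Ptprf had 9.63 in lymphoma 7, 8.45 in lymphoma 4, the floor in lymphomas 3, 5 and 6, and 10.62 to 11.51 in the reference.

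Group C (12 genes) was high in lymphomas 1 and 2 (1.31 and 1.04), at 0.75 and 0.57 in lymphomas 6 and 8, and lowest in lymphoma 3 (-1.99). Wfdc17, a secreted protein of activated macrophages, had 9.68, 10.51, 6.53, 6.36, 7.74, 9.47, 7.45 and 9.75, with all 10 reference mice at the floor (SD 1.61). Cdkn1a, the p53-induced cell cycle inhibitor p21, fell into 2 levels: 10.21 to 10.53 in lymphomas 1, 2, 5, 6 and 8, and 8.01, 8.47 and 8.10 in lymphomas 3, 4 and 7. The highest reference mouse had 8.22, below the higher set (SD 1.16 against 0.48, limma adjusted p = 0.00971). Among 16 p53 targets, Sesn1 was the other gene to pass the spread test, against 2.23% of all genes, and is named after its values were seen, whereas Mdm2, the p53 ubiquitin ligase, had an SD of 0.20. Esx1, a homeobox gene at the floor on all reference arrays, was 10.23 to 10.72 in lymphomas 1, 2, 6 and 8, and 8.05 to 8.69 in lymphomas 3, 4, 5 and 7.

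Macrophage genes did not form a single pattern. Group F (9 genes) stood at 2.18 in lymphoma 8, between 0.17 and 0.38 in lymphomas 2, 3, 4 and 6, and at -1.42, -1.0 and -1.04 in lymphomas 1, 5 and 7. It held Fcgr4, an activating antibody receptor, the lysosomal membrane protein Gpnmb, the pore protein Mpeg1, the integrin Itgax, and Cd5l. Fcgr4 had 6.73, 9.83, 8.02, 7.94, 7.05, 10.29, 6.22 and 10.77, and no reference mouse exceeded 6.55 (SD 1.73 against 0.32). Itgam, the integrin CD11b, belonged to group H (8 genes) instead, which stood at 1.38 and 1.21 in lymphomas 3 and 5 and at -1.77 and -1.69 in lymphomas 1 and 7. It had 7.95, 9.54, 11.23, 9.42, 11.60, 10.63, 9.41 and 11.15, highest in lymphoma 5, where Mpeg1 was second lowest at 7.98. The whole list of 19 macrophage and dendritic genes measured averaged 8.57 in lymphoma 1 to 10.42 in lymphoma 8, 7.70 to 8.42 in controls and 7.32 to 8.54 before transformation. Csf1r, the macrophage growth factor receptor, had an SD of 0.23, less than its reference SD of 0.51. Ctss, a further gene of this list, was in group A and ran from 9.32 in lymphoma 1 to 12.57 in lymphoma 8. The part of macrophage content in groups A, C, F and H was not tested.

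Collagen genes ran together: Col1a1 had 7.04, 7.38, 9.20, 9.03, 8.42, 8.08, 8.36 and 9.63. Its correlation with Col1a2 was 0.97 over lymphomas 3 to 8 (exact permutation p = 0.00139, adjusted over 18 pairs 0.00833), and no pooled value is given because lymphomas 1 and 2 both lay outside the range of the others. Bgn, the proteoglycan biglycan, ran from 7.0 in lymphoma 1 to 11.06 in lymphoma 8 (SD 1.39 against 0.38) and was in group A. The mean of 18 matrix genes was 7.91 in lymphoma 1 to 9.48 in lymphoma 8, 7.35 to 7.57 in controls and 7.33 to 7.94 before transformation. Endothelial and thymic epithelium genes varied less, with median SDs of 0.24 over 7 genes and 0.19 over 11 genes. S100a8 and S100a9, the paired granulocyte proteins, had a correlation of 0.998 (exact permutation p = 4.96e-05, adjusted 0.000446). S100a8 was 7.48 in lymphoma 7 to 10.11 in lymphoma 5, and its reference SD was as large (1.10 against 1.03).

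**Figure D4:**
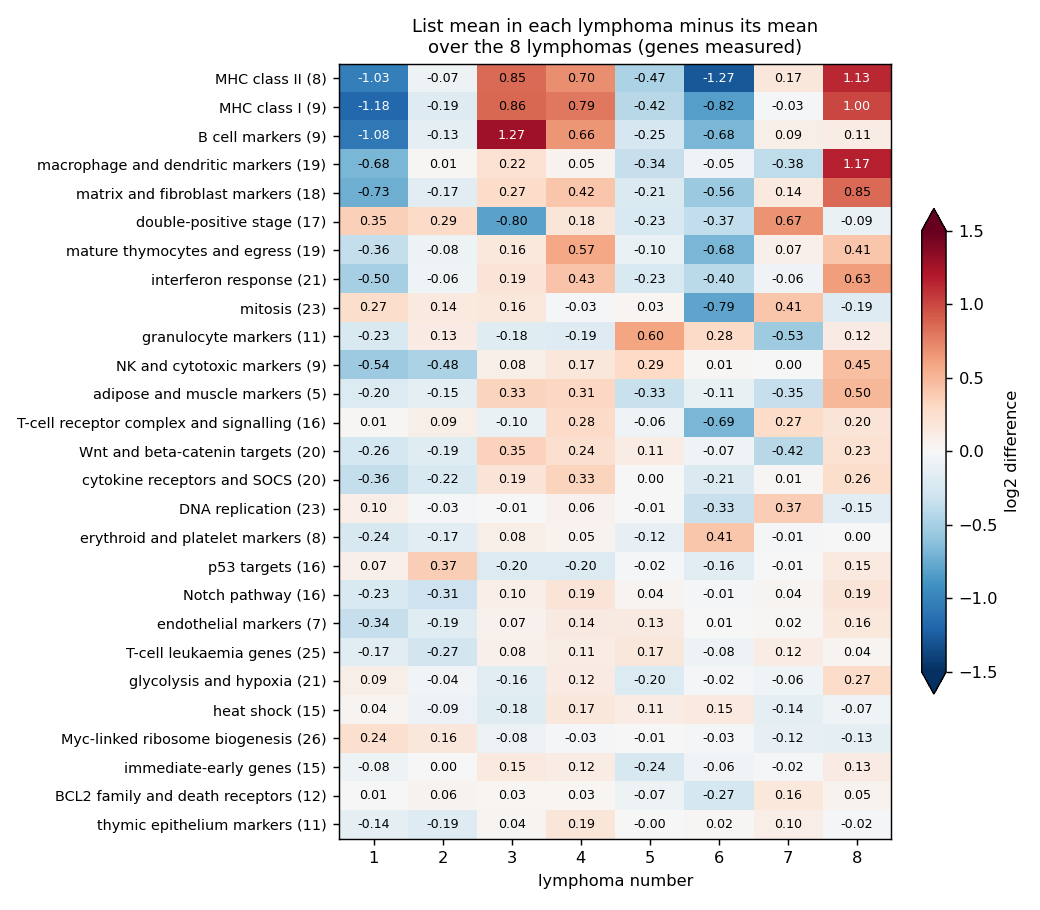
Mean of each gene list in lymphomas 1 to 8 (horizontal axis) minus its mean over the 8 tumours, as colour on the log2 scale, with the number of genes measured in brackets. MHC class I and II, B cell, macrophage and matrix lists are high in lymphoma 8 or 3 and low in lymphoma 1, and the receptor and mitosis lists are lowest in lymphoma 6.

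Group E (9 genes) separated lymphomas 1 and 2 (-1.80 and -1.75) from the other 6 (0.23 to 0.89) and contained Prex2, Btnl9 and Cyp4f15. Its mean correlation was 0.787 over the 8 tumours and 0.0226 over lymphomas 3 to 8. The arrays of lymphomas 1 and 2 had the lowest median intensity and the most values at the floor, and the part of this, or of a shared processing of mice 1 and 2, in group E was not tested. Group G (8 genes) was low in lymphoma 6 alone, at -2.73 against -0.08 to 0.92 in the other 7, and held the adhesion molecule Vcam1, the RNA-binding protein Rbms1, the actin regulator Evl and the phosphatase Dusp4.

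Genes that were at least 4-fold above or below the nearest other tumour in a single lymphoma were counted. 8 genes were high in a single tumour (0.0571% of genes tested) and 34 were low (0.243%), and 25 of the 34 were low in lymphoma 6. These counts include Snorc, Syne2 and Kcnj9, whose probe sets held blank values set to the floor. With the probe sets of a gene averaged, the total of 42 fell to 20. Rbms1 was 5.8 in lymphoma 6 and 8.90 to 9.27 in the other 7, and a second probe set showed a gap of 3.24. Cd2ap, an adaptor at the T-cell synapse, was at the floor in lymphoma 6 and 8.66 to 9.73 in the others. The proliferation gene Mki67 was 9.09 in lymphoma 6 and 11.01 to 11.82 in the others. The mean of 23 mitosis genes was 9.23 in lymphoma 6 and 9.82 to 10.43 in the others, while 9.47 to 10.55 was the range in the reference. Lymphoma 6 also had the lowest spike-in mean, and what that contributes was not tested. Mki67 and Top2a had r = 0.99 (exact permutation p = 0.00270, adjusted 0.00811), which was 0.51 without the 2 tumours farthest from the median.

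Il17rb, a receptor for interleukin 25, and Chdh, which oxidises choline, were low in lymphoma 1 alone. Il17rb had 6.93 there and 10.21 to 11.55 in the other 7, and Chdh 7.65 and 10.85 to 12.09. Chdh is named after its values were seen. Control means were 8.63 and 9.39, and means before transformation 10.82 and 12.13, so that lymphoma 1 lay below the means of both reference groups for each gene. They lie side by side on chromosome 14 and point away from each other, with 0 protein-coding genes between them. The stretch between their starts is shown because it is shared by the pair. It covers chr14:30008897-30008999 on the plus strand (RefSeq, GRCm38.p6), and no letters are marked.
Il17rb and Chdh: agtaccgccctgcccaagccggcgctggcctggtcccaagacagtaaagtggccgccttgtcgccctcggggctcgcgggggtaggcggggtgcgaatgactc
The next genes on either side did not show a gap of this size. Actr8 was 9.28 in lymphoma 1 and 8.71 to 9.28 in the others. Cacna1d was also lowest in lymphoma 1, at 7.71 against 7.99 to 8.93. Ybx3, a cold-shock RNA-binding protein, was 6.77 in lymphoma 7 and 10.91 to 11.38 in the other 7, a gap of 4.15 on the log2 scale. A second probe set of Ybx3 was at the floor in lymphoma 7 and 9.74 to 10.32 elsewhere. Antigen receptor segments marked single tumours as well: Trav6-3 was 9.42 in lymphoma 5 and at most 7.19 elsewhere, and Trbv13-2 was 10.00 in lymphoma 6 and at most 7.77 elsewhere, against 8.80 to 10.76 in the reference. Ms4a4b, a membrane protein of mature T cells, was 11.19 in lymphoma 4 and at most 8.68 in the others. Controls had 10.68 to 11.28 and mice before transformation 8.82 to 12.30, so that lymphoma 4 lay within both ranges. A second probe set of Ms4a4b was at the floor in every lymphoma.

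Ribosome, replication, mitosis and leukaemia genes had median SDs close to that of all genes. Over 26 genes of Myc-linked ribosome biogenesis the median SD was 0.23, none reached an SD of 1, and the list mean was 10.39 to 10.76. Over 23 DNA replication genes the median SD was 0.25, and over 23 mitosis genes it was 0.30, both beside 0.29 for all genes. Among 25 T-cell leukaemia genes the median SD was 0.30, and 2, both named after their values were seen, passed the test for a wider spread, against 2.23% of all genes: the lineage factor Bcl11b (10.25 in lymphoma 3 to 11.46 in lymphoma 7) and the chromatin protein Phf6 (7.94 in lymphoma 2 to 9.67 in lymphoma 7). Notch3, a receptor of thymocyte development, was 6.84 and 6.95 in lymphomas 2 and 6 and 7.96 to 9.11 in the others, with an SD of 0.91 against 0.13 (limma adjusted p = 0.0116). The median SD of 21 interferon response genes, 0.49, was above that of all genes, and 3 of them reached an SD of 1, against 1.93% of all genes. Gbp2, a guanylate-binding GTPase of group A, passed the test. It ran from the floor in lymphoma 6 to 9.55 in lymphoma 8 (limma adjusted p = 0.0100). Hspa1b, an inducible heat shock protein, was 9.37, 9.54 and 10.41 in lymphomas 4, 5 and 6 and 7.63 to 8.18 in the others (adjusted p = 0.0248).

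Of the 71 genes that spread less among lymphomas, Arl2bp had the smallest limma adjusted p (0.00137). It lay between 9.28 and 9.31 in mice 1 and 2 before transformation and between 6.15 and 6.32 in mice 3 to 5, while its SD among lymphomas was 0.26 against 1.21 in the reference. Kifc1, a mitotic kinesin, had an SD of 0.25 against 0.92 (adjusted p = 0.00348). With all mice numbered 1 and 2 left out, the sign turned for both (a difference in absolute deviation of 0.0868 for Arl2bp and 0.00702 for Kifc1, lymphomas minus reference). The sex-linked Xist was 6.18 in lymphoma 3, 10.12 in lymphoma 4 and 12.10 to 12.83 in the other 6. In the reference Xist was 13.07 in controls 1 and 2, 6.31 to 6.60 in controls 3 to 5, and 6.07 to 6.96 before transformation. Sex as read from Xist thus differed between and within the groups, and its part in the spread of other genes was not tested. The Y-linked Eif2s3y was 9.26 in lymphoma 3, 8.29 in lymphoma 4 and at the floor in the other lymphomas, so that lymphoma 4 gave signal for both genes. RNA of more than 1 mouse in this sample and a trait of a single mouse cannot be told apart here. Lymphoma 4 is among the highest tumours for group A, Grb10 and H2-Eb1, and without it 297 genes had an SD of at least 1.

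Of 20 gene pairs with a shared role 18 could be measured, and 8 of these had lymphomas 1 and 2 apart from the rest. By Pearson correlation 6 of the 18 passed an exact permutation test after adjustment over the 18 pairs, and 7 did over lymphomas 3 to 8. H2-Aa and H2-Ab1 had r = 0.97 (exact permutation p = 0.000174, adjusted 0.000781), and Cd79a and Cd79b r = 0.95 (exact permutation p = 0.000546, adjusted 0.00196). Cd3e and Cd3g had r = 0.36 over all 8 tumours, and 0.91 over lymphomas 3 to 8 (exact permutation, adjusted p = 0.0393).

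Genes were placed on chromosomes through RefSeq (GRCm38.p6), a step chosen after seeing the data. For 8409 genes with a mean log2 signal above 8, the median shift of the genes of each chromosome against the genes of all others was taken on each array. Lymphomas were set against the mean of the 2 reference group means, and each reference mouse against the same with itself left out of its group. Chromosome 15, on which Myc lies, shifted by -0.08, 0.03, 0.03, 0.08, 0.23, 0.18, 0.26 and 0.10 on the log2 scale in lymphomas 1 to 8. In lymphomas 4 to 8 it had the highest shift of 20 chromosomes. Over all chromosomes the reference mice ran from -0.07 to 0.09, and for chromosome 15 from -0.04 to 0.05. Set against the other reference group alone they ran from -0.07 to 0.12. Chromosome 15 left this range upward in lymphomas 5, 6 and 7 and downward in lymphoma 1 (-0.08), and not in lymphoma 8. Other chromosomes left it too. These were chromosome 3 in lymphoma 1 (-0.08), chromosomes 14 and 17 in lymphoma 2 (0.16 and -0.09) and chromosome 16 in lymphoma 4 (-0.08). In lymphoma 5 they were chromosomes 18 and X (-0.09 and -0.08). In lymphoma 6 they were chromosomes 1, 3, 12, 16, X (-0.15) and 18, the lowest (-0.19). In lymphoma 4 the next chromosome had the same value to 2 decimals. In lymphoma 7, 72.6% of the genes of chromosome 15 lay above the median of the rest. This share was 67.5% in lymphoma 5, 60.1% in lymphoma 6, 58.4% in lymphoma 8 and 43.6% in lymphoma 1. The number of tumours in which chromosome 15 was highest was 5 with quantile normalization, 4 against the mice before transformation alone, and 3 with genes above a mean of 9. Over the 8 tumours this shift had an SD of 0.112, and that of no other chromosome exceeded 0.0784. Myc itself was highest in lymphoma 1, where the shift was lowest.

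**Figure D5:**
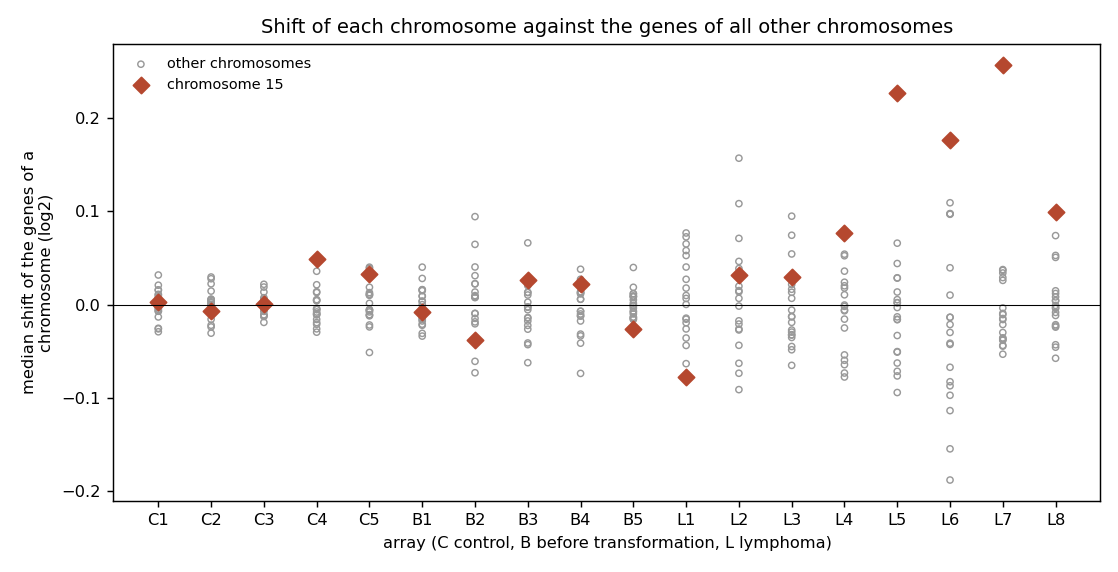
Median shift of the genes of each chromosome against the genes of all other chromosomes (vertical axis, log2) on each array (C control, B before transformation, L lymphoma), with chromosome 15 as filled diamonds and every array set against the mean of both reference groups, without itself. Chromosome 15 stands at 0.23, 0.18 and 0.26 in lymphomas 5, 6 and 7 and between -0.04 and 0.05 in the reference mice. Over all chromosomes the reference mice run from -0.07 to 0.09, and other chromosomes leave that range in lymphomas 1, 2, 3, 4, 5 and 6.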

How the data were processed

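Total RNA of 18 mice was hybridised to Affymetrix mouse expression arrays, 1 array per mouse. The deposited table holds linear intensity values computed by the authors in dChip, as the design text states; the dChip version, model and scaling are not given in the labels. Of 811818 values 1.20% were blank. Blank, negative and low values were set to the floor, and log2 was then taken from the deposited intensities. Control 1 held 605 of the 606 negative values. Gene symbols came from the platform annotation: of 45101 probe sets, 34958 had 1 symbol, 932 several and 9211 none (64 of the total were array controls). The probe set of highest mean stood for its gene. Low fold changes are understated by the floor.

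SDs were pooled over the control and before-transformation groups. Spread was tested with limma 3.58.1 in R 4.3.3 (lmFit and eBayes with trend on absolute deviations, scaled for group size), Benjamini-Hochberg adjusted over 14020 genes. Simulated data for this comparison held 100 genes at each of 2 sizes. The test recovered 26% of genes whose SD was raised 5 times and 39% of those raised 10 times. Of its 71 calls 6 were false, and 7.33% of unchanged genes had an unadjusted limma p under 0.05. On log2 deviations the test recovered 56% and 90%, with 16 false among 162 calls. Simulated arrays varied independently, whereas arrays numbered 1 and 2 shared deviations, so these rates may differ in the data. Correlations and the array distance were tested by exact permutation in Python 3.11.15 with scipy 1.17.1. The groups of correlated genes were cut at a correlation of 0.6 and have no test. Promoter sequences and gene positions are from RefSeq tables of GRCm38.p6.

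Genes were named by rule: the most variable overall and in lymphomas 3 to 8, those of smallest adjusted p, up to 8 per group, those apart in a single tumour, up to 5 per gene list, and the gene pairs. Genes outside it are said to be named after their values were seen; these include Tap2, Chdh and Actr8. The members, lists and pairs were chosen with earlier results of these data known. Mice of different groups share numbers, but the correlation of same-numbered deviations ran from -0.142 to 0.408, with 8 of 15 pairs above 0.1, so the numbers were not used to pair mice. Alternatives changed the floor, the filter, the centring, the probe-set rule, the reference group and the mice included.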

Additional observations from a re-analysis of the deposited data

Results flagged for a closer look

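Each value below is the gap, on the log2 scale, between the extreme mouse of a group and its nearest neighbour, where that gap took up more of the group's range than Dixon's 95% limit allows. Chance alone does so in about 1 in 20 groups of values that were not chosen for such a gap. Genes named for standing apart in a single tumour were chosen for it, so that rate does not hold for them.

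Single tumours stood apart as follows. In lymphoma 6 the mean of the T-cell receptor list lay 0.58 below the next tumour (9.75 against 10.33 in lymphoma 3), and Rbms1 lay 3.10 below. Il17rb lay 3.28 below in lymphoma 1, Ybx3 4.15 below in lymphoma 7, and Xist 3.93 below in lymphoma 3. Adh1, which oxidises alcohols and retinol, lay 2.92 above the next tumour in lymphoma 4, and Izumo1r, a folate receptor family member of regulatory T cells, lay 2.64 above it in the same tumour. Trav6-3 lay 2.23 above in lymphoma 5. Mouse 3 before transformation had 9.69 for Adh1 and 9.54 for Izumo1r, beside 9.88 and 9.92 in lymphoma 4.

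Snorc in lymphoma 6 (3.45 above) and Syne2 in lymphoma 1 (3.06 above) rest on probe sets that were blank in 6 lymphomas and set to the floor there. For Kcnj9 in lymphoma 2 (2.75 below) the low value was itself a blank set to the floor. Other probe sets of Syne2 and Kcnj9 did not show the gap.

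Before transformation, mouse 3 stood apart for Grb10 (4.64 above), Tnni1 (4.41 above) and Ppic (3.66 above), all genes of group A.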

How the results depend on the processing

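By limma, 312 genes were wider and 71 narrower among lymphomas. Wider and narrower counts were 651 and 364 with no filter, 154 and 34 for genes above the floor on all arrays, 506 and 146 with deviations from the mean of group and number set (mice 1 and 2 against the rest), 18 and 1 without all mice numbered 1 and 2, 110 and 25 against controls alone, 71 and 109 against mice before transformation alone, and 947 and 136 on log2 deviations. Squared deviations gave 3 and 0, and group medians 40 and 0, beside 663 narrower genes at an unadjusted p under 0.05 in the fit as reported. The narrower count was 148 with the floor at the 30th percentile, 36 with arrays centred on their medians and 196 without lymphomas 1 and 2. Leaving out 1 mouse gave 152 to 574 wider and 30 to 162 narrower genes, 226 to 297 genes with an SD of at least 1, a median SD of 0.27 to 0.30, and an array distance of 0.0195 to 0.0588 (exact permutation p = 0.0220 to 0.580). With the mouse number as a replicate block the counts were 601 and 42; the numbers do not pair the mice.

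Without lymphomas 1 and 2 the array distance was -0.0187 (exact permutation p = 0.372) and the median SD 0.202, as without all mice numbered 1 and 2; it was 0.211 with deviations from group and number set. Genes with an SD of at least 1 numbered 119 among genes above the floor on all arrays. Genes apart in a single tumour numbered 42, 163 with a gap of 1.5, and 20 with probe sets averaged.

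The difference in deviation (lymphomas minus reference) turned positive without all mice numbered 1 and 2 for Arl2bp (0.0868), AI506816 (0.230) and Kifc1 (0.00702), with deviations from group and number set (0.0977, 0.326 and 0.0313), and against controls alone for Arl2bp (0.0261). Among single genes tested for spread 38 alternatives lost the call and 197 kept it. The cause of these changes was not tested, apart from the fewer genes or mice that some settings hold. The number of arrays limits the precision, and signals near the floor carry no order.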

Other observations

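Single genes of hypoxia and cytokine signalling are given here as values. Egln3, an oxygen-sensing hydroxylase, was 9.38 in lymphoma 1 and 11.96 in lymphoma 3, above every control (8.31 to 8.72) in all 8 (SD 0.85 against 0.17, limma adjusted p = 0.0422). Adm, the vasodilator peptide adrenomedullin, was at the floor in lymphoma 1 and at 8.43 and 8.08 in lymphomas 6 and 5. Bnip3, a mitochondrial protein induced by low oxygen, ran otherwise, from 6.42 in lymphoma 5 to 8.47 in lymphoma 1. The median SD of 21 glycolysis and hypoxia genes was 0.29, as for all genes. Il21r, the receptor for interleukin 21, had 6.51, 6.62, 8.06, 8.31, 6.54, 5.74, 7.88 and 8.04, with all tumours below the reference (8.71 to 9.73), and was the 1 of 20 cytokine receptor genes that passed, against 2.23% of all genes (limma adjusted p = 0.000677).

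Gzma, a serine protease of cytotoxic lymphocytes, was 10.64 and 10.44 in lymphomas 5 and 6 and 6.79 to 9.13 in the others (SD 1.32 against 0.46, limma adjusted p = 0.0843). The immunoglobulin segment Igkv5-39 was at the floor in lymphomas 1 and 6, and 7.97 to 9.07 in lymphomas 2, 3, 4 and 8. In the reference it was above the floor in 1 mouse (6.80; SD 1.46 against 0.33). Pde8a, a cAMP phosphodiesterase, was 8.88 to 9.43 in lymphomas 1, 2, 6 and 8 and 7.26 to 7.89 in lymphomas 3, 4, 5 and 7, the same division as Esx1, and above every reference mouse in all 8 (limma adjusted p = 0.000735).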
